A study of Mus musculus with 2 samples.

Results

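The replication-dependent histone genes of the mouse were examined in RNA sequencing of embryonic limb. Members were the protein-coding genes whose GENCODE M21 symbol begins with Hist1 to Hist4 followed by h1, h2a, h2b, h3 or h4, matched by Ensembl identifier to the deposited gene tables. The name pattern took 70 symbols, of which 67 were protein-coding, and 64 of these had a row in both tables, out of 43346 Ensembl genes listed. The 64 members comprised 6 H1, 18 H2A, 15 H2B, 12 H3 and 13 H4 genes. Hist1h2bh, Hist1h2bm and Hist2h2bb had no row under their own identifiers and are not analysed here as members. By cluster, 52 members belonged to Hist1 on chromosome 13, 9 to Hist2 on chromosome 3, 2 to Hist3 on chromosome 11 and 1, Hist4h4, to Hist4 on chromosome 6.

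All samples formed 1 group, limb tissue of B6NCrl embryos with no treatment or altered allele labelled, at embryonic day 14.5, sequenced as 2 libraries that the labels number as biological replicates 1 and 2. The RNA input was 10 ng per library, selected above 200 nt and mixed with spike-ins. The labels also link a general protocol whose file name refers to Smart-seq, a method that in its usual form primes cDNA at the poly(A) tail; the text of that protocol was not used here, so whether these libraries were primed in that way is not known, and this bears on the level of every mRNA without a tail given here. Donor identifier, pup number and pregnancy number are shared by the samples while the collection days differ, and sex is labelled as pooled, so separate animals are not assured and the spread between the libraries may be technical. With 1 group there was no comparison between conditions, and with 2 libraries an exact sign-flip test of a ratio within libraries cannot go below p = 0.5. Levels are therefore given in each library and as mean ± SD (n = 2). The gene tables summed to 34193161 expected counts in replicate 1 and 32879425 in replicate 2. A count of 0 allows up to 3 counts, counting error only. Limb mesenchyme markers were present, with 10 of 10 at 1 TPM or more in both libraries, and 0 of 8 markers of neighbouring organs reached 1 TPM in both.

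Replication-dependent histone genes supply the histones that package newly made DNA, so their RNA is known to rise in S phase and to be lost when DNA synthesis stops. Most of their mRNAs carry no poly(A) tail and end just after a short stem-loop, which is bound by the protein Slbp and directs cleavage with the U7 small nuclear RNP. H2A, H2B, H3 and H4 form the core of the nucleosome and H1 binds the linker DNA, while replacement histones such as H3.3 are made from polyadenylated mRNAs through the whole cell cycle.

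The stem-loop is shown first because it is the feature that sets these RNAs apart from other mRNAs. A stem of 6 base pairs that starts with GG and closes on a loop of 4 bases beginning with TT was searched for in GENCODE M21 transcripts. It was found after the stop codon in 42 of 64 members, and anywhere in a transcript of 109 of 21887 other protein-coding genes (0.498%). The letters below are written 5′ to 3′ on the transcript strand with U as T, the capitals mark the 2 arms of the stem, and up to 5 bases are given on either side.
Hist1h2ap (H2A): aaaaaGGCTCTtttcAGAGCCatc
Hist1h2bg (H2B): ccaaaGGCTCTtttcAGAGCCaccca
Hist1h1e (H1): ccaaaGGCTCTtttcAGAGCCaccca
Hist1h3c (H3): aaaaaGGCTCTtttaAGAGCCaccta
Hist2h2ac (H2A): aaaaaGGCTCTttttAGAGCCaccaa
Hist1h4d (H4): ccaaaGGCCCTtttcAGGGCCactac
Hist1h4i (H4): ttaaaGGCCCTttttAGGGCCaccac
Hist1h4b (H4): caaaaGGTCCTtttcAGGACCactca
The form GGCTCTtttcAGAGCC was the commonest, in 24 members of the H1, H2A, H2B and H3 types. The H4 genes carried other stems, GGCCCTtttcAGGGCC in 7 members, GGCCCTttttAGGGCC in 2 and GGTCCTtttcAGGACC in 2, and no other type carried these. Of the 22 members without a match, 14 had gene models that end within 25 nt of the stop codon, so the letters were not in the model searched. Of the 42 with a match, 20 had M21 models that end within 60 nt of the stem-loop, and 21 had models that run more than 150 nt past it.

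Promoters of 59 of the 64 members were matched in the RefSeq table for GRCm38.p6, which spans 250 bases before and 50 after the start of the RefSeq entry. Hist1h2bc, Hist1h3a, Hist1h3f, Hist2h2be and Hist2h4 had no entry. The promoters of the leading H2A, H4 and H1 genes and of the second H2A gene are shown because Hist1h2ap, Hist1h4d and Hist1h2ae are the 3 highest members and Hist1h1e leads the H1 type, where the H1 box was searched for. Capitals mark the TATA box (TATAAA), the CCAAT box (CCAAT), the octamer (ATTTGCAT) and the H1 box (AAACACA), searched on both strands anywhere in the window, with none of these motifs overlapping another in the windows shown.
Hist1h2ap, minus strand of chr13:21833426-21833725: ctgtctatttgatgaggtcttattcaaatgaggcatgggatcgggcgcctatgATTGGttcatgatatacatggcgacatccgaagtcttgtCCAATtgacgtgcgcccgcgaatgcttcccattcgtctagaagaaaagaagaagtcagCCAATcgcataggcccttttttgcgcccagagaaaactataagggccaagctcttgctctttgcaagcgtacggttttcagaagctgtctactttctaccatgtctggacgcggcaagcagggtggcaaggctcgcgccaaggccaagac
Hist1h4d, plus strand of chr13:23581318-23581617: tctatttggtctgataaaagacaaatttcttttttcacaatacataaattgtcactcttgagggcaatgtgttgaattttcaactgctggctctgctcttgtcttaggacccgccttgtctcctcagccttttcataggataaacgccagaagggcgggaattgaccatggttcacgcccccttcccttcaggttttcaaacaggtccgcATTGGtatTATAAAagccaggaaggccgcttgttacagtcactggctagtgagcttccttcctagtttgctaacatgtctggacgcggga
Hist1h1e, minus strand of chr13:23622509-23622808: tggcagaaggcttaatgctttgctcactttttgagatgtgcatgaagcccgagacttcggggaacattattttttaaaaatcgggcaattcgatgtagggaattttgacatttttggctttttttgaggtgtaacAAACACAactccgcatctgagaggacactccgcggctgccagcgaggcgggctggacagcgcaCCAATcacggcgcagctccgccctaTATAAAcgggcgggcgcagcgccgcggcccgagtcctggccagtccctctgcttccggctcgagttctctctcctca
Hist1h2ae, minus strand of chr13:23571171-23571470: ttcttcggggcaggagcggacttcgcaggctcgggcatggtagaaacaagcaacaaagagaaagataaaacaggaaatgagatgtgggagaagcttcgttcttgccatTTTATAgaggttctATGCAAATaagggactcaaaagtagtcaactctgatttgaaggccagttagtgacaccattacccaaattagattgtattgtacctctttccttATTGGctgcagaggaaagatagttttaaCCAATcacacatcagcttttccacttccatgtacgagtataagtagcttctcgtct
CCAAT, the letters bound by the factor NF-Y, occurred in 50 of 59 members, against 37.4% of all 32851 promoters in the table. It was present in every H1, H2A, H2B and H3 promoter matched and in 3 of 12 H4 promoters. TATAAA occurred in 35 of 59 members, against 13.6% of all promoters. ATTTGCAT, the octamer bound by Oct1 (Pou2f1), occurred in 7 of 18 H2A and 5 of 13 H2B promoters and in no other type, against 1.74% of all promoters. AAACACA, known as the H1 box, occurred in 5 of 6 H1 promoters and 8 of 59 members, against 7.18% of all promoters. H2A and H2B genes that start close together on opposite strands have overlapping windows, so a site there can be counted for both genes. The TTTATA and ATGCAAAT marked for Hist1h2ae at -142 and -128 were the sites found for Hist1h2bg at -43 and -59. First matches of TATAAA lay anywhere from -250 in Hist1h4f to 42 in Hist1h4a, counted from the start of the RefSeq entry. That start is not the same point in every gene, so these positions need not be distances from where transcription begins. For Hist1h2ap it is the ATG of the coding sequence, inside the M21 gene that begins at 21833507. The same ATTGG was the first CCAAT match at -197 in Hist1h2ap and at -97 in Hist1h2ao. No match says only that the letters are not in the window, and the Hist1h2ap window held CCAAT on both strands but neither TATAAA nor the octamer.

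The summed level of the 64 members was 3737 TPM (a level per transcript length, rescaled so that libraries share a total) in replicate 1 and 4031 TPM in replicate 2, and they took 0.101% and 0.106% of all expected counts. Of the members, 52 reached 1 TPM in both libraries (81.3%), as did 13191 of 21474 protein-coding genes (61.4%). Hist1h4k was on different sides of that level in the 2 libraries, at 1.47 and 0.63 TPM, and 11 members were below it in both. Just inside were Hist1h2be with 1.23 and 1.18 TPM and Hist1h3f with 1.05 and 1.58 TPM, and just outside were Hist1h2bq with 0.82 and 0.99 TPM under its own identifier (1.78 and 2.38 TPM with a transcript listed under another) and Hist2h2ab with 0.76 and 0.96 TPM. The median member stood at 6.11 TPM, against 4.93 TPM for all protein-coding genes. In whole tissue, fewer cells in S phase and less RNA per cell cannot be told apart.

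**Figure D1:**
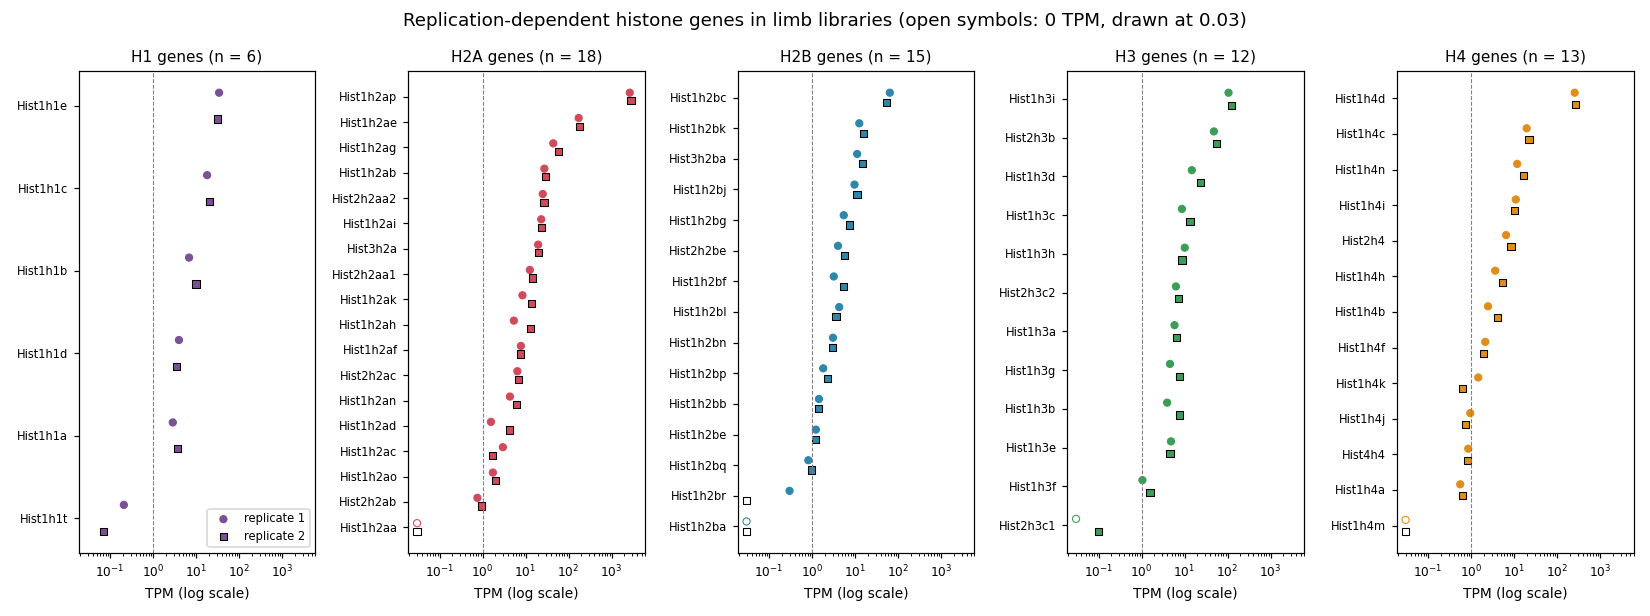
TPM (log axis) of each of the 64 members in replicate 1 (circles) and replicate 2 (squares), in 1 panel per histone type and ordered by mean; open symbols stand for 0 TPM and the dashed line is 1 TPM. Hist1h2ap stands apart among the H2A genes and Hist1h4d among the H4 genes, while 3 members lie at 0 TPM in both libraries.

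Among the H1 genes, which encode the linker histones, Hist1h1e led with 34.4 TPM in replicate 1 and 32.0 TPM in replicate 2 (33.2 ± 1.69 TPM). Hist1h1c followed with 18.1 and 20.4 TPM, and Hist1h1b with 6.89 and 9.98 TPM. These 3 genes did not overlap one another across the libraries. Hist1h1d had 4.01 and 3.47 TPM and Hist1h1a 2.88 and 3.69 TPM, and the ranges of these 2 overlapped. Hist1h1t, the testis linker histone, had 3 and 1 counts, or 0.21 and 0.07 TPM, at or below the 3 counts that a count of 0 allows. The H1 genes were also the most different in sequence, with coding identities of 62.6% to 84.5% between members and 6 distinct proteins. The median H1 gene had 99.6% of the 100-nt windows of its M21 transcript in no other gene.

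Among the H2A genes most of the level was listed under 1 gene. Hist1h2ap (ENSMUSG00000094777, a single-exon gene at chr13:21833026-21833507, minus strand) had 2652 TPM from 23349 expected counts in replicate 1 and 2828 TPM from 23245 expected counts in replicate 2. Its mean of 2740 ± 125 TPM ranked 14 among protein-coding genes. Next came Hist1h2ae (chr13:23570517-23571220) with 172 and 177 TPM, Hist1h2ag with 44.1 and 58.6 TPM and Hist1h2ab with 27.4 and 28.5 TPM. Each of these 4 was above the next in both libraries, with no overlap. Hist1h2ap alone made up 87.9% and 87.4% of the summed H2A level.

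The remaining H2A genes formed a graded series. Hist1h2ai had 23.1 and 23.7 TPM, Hist1h2ak 8.48 and 14.1 TPM and Hist1h2ah 5.35 and 12.9 TPM. In the Hist2 cluster, the twin genes Hist2h2aa1 and Hist2h2aa2 had 37.8 and 41.6 TPM together, Hist2h2ac had 6.46 and 6.81 TPM and Hist2h2ab 0.76 and 0.96 TPM. Hist3h2a on chromosome 11 had 19.6 and 20.5 TPM. Hist1h2aa, a testis H2A gene, was listed at 0 counts in both libraries. Of 16 neighbouring pairs in the order of H2A levels, 5 overlapped between libraries.

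Among the H2B genes, Hist1h2bc led with 64.4 and 53.8 TPM (59.1 ± 7.56 TPM). Hist1h2bk had 12.6 and 15.6 TPM and Hist3h2ba of the Hist3 cluster 11.2 and 14.8 TPM, and these overlapped. Hist2h2be, in the Hist2 cluster, had 4.02 and 5.77 TPM. The other 11 members ranged from 0 to 10.4 TPM in the mean, and the testis H2B gene Hist1h2ba was listed at 0 counts in both libraries. No member with more than 1 transcript in the tables reached a mean of 5 TPM.

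Among the H3 genes, Hist1h3i led with 105 and 121 TPM (113 ± 11.1 TPM). Hist2h3b of the Hist2 cluster had 48.1 and 55.1 TPM, and Hist1h3d 14.8 and 23.3 TPM. These 3 were in the same order without overlap in both libraries, and below them the order was loose, with 5 of 11 neighbouring pairs overlapping. Hist1h3c had 8.69 and 13.4 TPM, Hist1h3b 3.94 and 7.57 TPM, and Hist2h3c2 6.30 and 7.27 TPM. Hist2h3c1 was listed at 0 and 0.10 TPM under its own identifier, and a transcript of it listed under Gm20634 had 0.63 and 1.87 TPM. The 12 H3 genes encode 2 proteins: the 4 genes Hist1h3a, Hist1h3g, Hist1h3h and Hist1h3i encode the form known as H3.1 and summed to 126 and 144 TPM, and the other 8 encode the form known as H3.2 and summed to 87.7 and 113 TPM. The H3.1 genes thus held 58.9% and 56.0% of the H3 level.

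Among the H4 genes, all 13 of which encode 1 identical protein of 103 residues from 12 distinct coding sequences, Hist1h4d (ENSMUSG00000061482, chr13:23581598-23582735, plus strand) led with 257 and 272 TPM (265 ± 11 TPM). It held 80.8% and 79.2% of the H4 level. Hist1h4c had 19.7 and 22.2 TPM and Hist1h4n 11.8 and 16.3 TPM. Outside the Hist1 cluster, Hist2h4 had 6.53 and 8.52 TPM and Hist4h4 on chromosome 6 had 0.86 and 0.82 TPM. Hist1h4m, whose coding sequence is identical to that of Hist1h4n, was listed at 0 counts in both libraries with upper credibility bounds of 3.93 and 2.49 TPM.

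Summed by type, H2A reached 3015 and 3234 TPM (3125 ± 155 TPM), H4 318 and 344 TPM (331 ± 18.4 TPM), H3 214 and 257 TPM (235 ± 30.4 TPM), H2B 124 and 126 TPM (125 ± 1.76 TPM) and H1 66.5 and 69.6 TPM (68.1 ± 2.19 TPM). The order H2A, H4, H3, H2B, H1 was the same in both libraries without overlap. The log2 ratio of H2A over H2B, the 2 partners of the nucleosome dimer, was 4.61 and 4.68 (4.64 ± 0.05), a 25-fold higher sum for H2A. The log2 ratio of H3 over H4 was -0.57 and -0.42 (-0.50 ± 0.11), so that H3 summed to 0.708 times H4. The ratios of H2A, H2B and H1 over H4 were 3.24 ± 0.01, -1.41 ± 0.06 and -2.28 ± 0.03 on the log2 scale. Each ratio had the same sign in both libraries and lay more than 1 SD from 0.

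These ratios turned on single genes. Without the leading member of each type the H2A sum was 364 and 406 TPM, the H3 sum 108 and 136 TPM, the H4 sum 61.1 and 71.7 TPM, the H2B sum 59.2 and 72.3 TPM and the H1 sum 32.1 and 37.6 TPM. The H2A over H2B log2 ratio was then 2.56 ± 0.09. The H3 over H4 ratio changed sign, to 0.83 and 0.92 (0.87 ± 0.07), and H2B over H4 came to -0.02 ± 0.04. On expected counts, which are not scaled by length, the H2A over H2B log2 ratio was 3.98 ± 0.04.

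**Figure D2:**
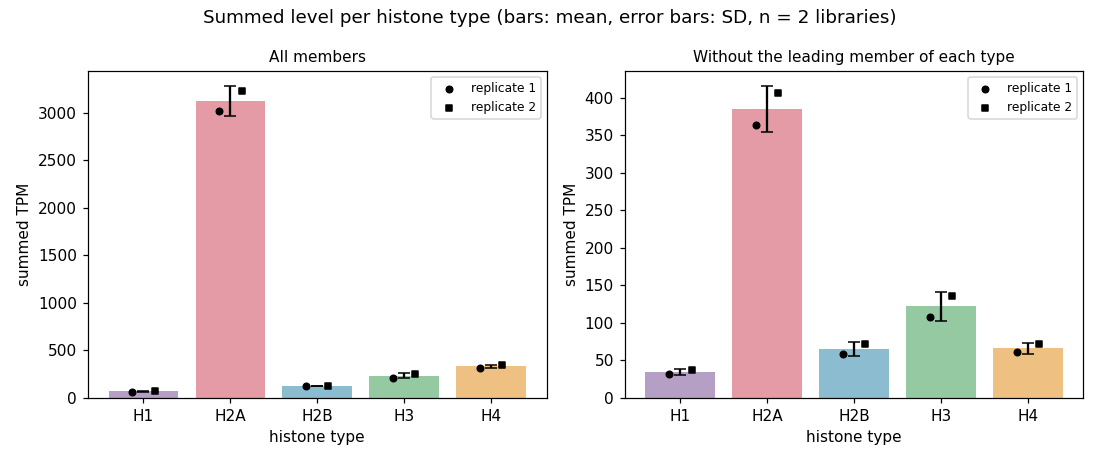
Summed TPM per histone type for all members (left) and without the leading member of each type (right); bars are means, error bars SD of 2 libraries, circles replicate 1 and squares replicate 2, and the 2 panels have different scales. H2A is highest in both panels, while H3 stands above H4 only when the leading members are left out.

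By cluster, Hist1 summed to 3595 and 3868 TPM, Hist2 to 110 and 126 TPM, Hist3 to 30.8 and 35.2 TPM and Hist4 to 0.86 and 0.82 TPM. Hist1 thus held 96.2% and 96.0% of the level of all members with 52 of 64 genes. Leaving out Hist1h2ap, the Hist1 sum was 944 and 1041 TPM. In the H3 type the Hist2 cluster had a larger part than elsewhere, with 54.4 and 62.5 TPM against 159 and 194 TPM for the H3 genes of Hist1.

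The Hist1 genes lay in 2 neighbourhoods that no gap within them over 200000 bases divided. The first, chr13:21715763-22043676 from Hist1h2bl to Hist1h2bj, held 22 members with 2919 and 3150 TPM, which came to 267 and 322 TPM without Hist1h2ap. Its extent hangs on the threshold, since Hist1h2br ends at 21837530 and the next member, Hist1h2ah, starts at 22035164, just under 200000 bases on. A slightly smaller threshold would divide it there. The second, chr13:23531050-23934851 from Hist1h4h to Hist1h2aa, held 30 members with 676 and 719 TPM, led by Hist1h4d. The median member had 8.78 TPM in the first and 4.62 TPM in the second, and 17 of 22 and 26 of 30 members reached 1 TPM in both libraries. High and low genes stood side by side in both, and the testis genes Hist1h2aa and Hist1h2ba were at the far end of the second.

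**Figure D3:**
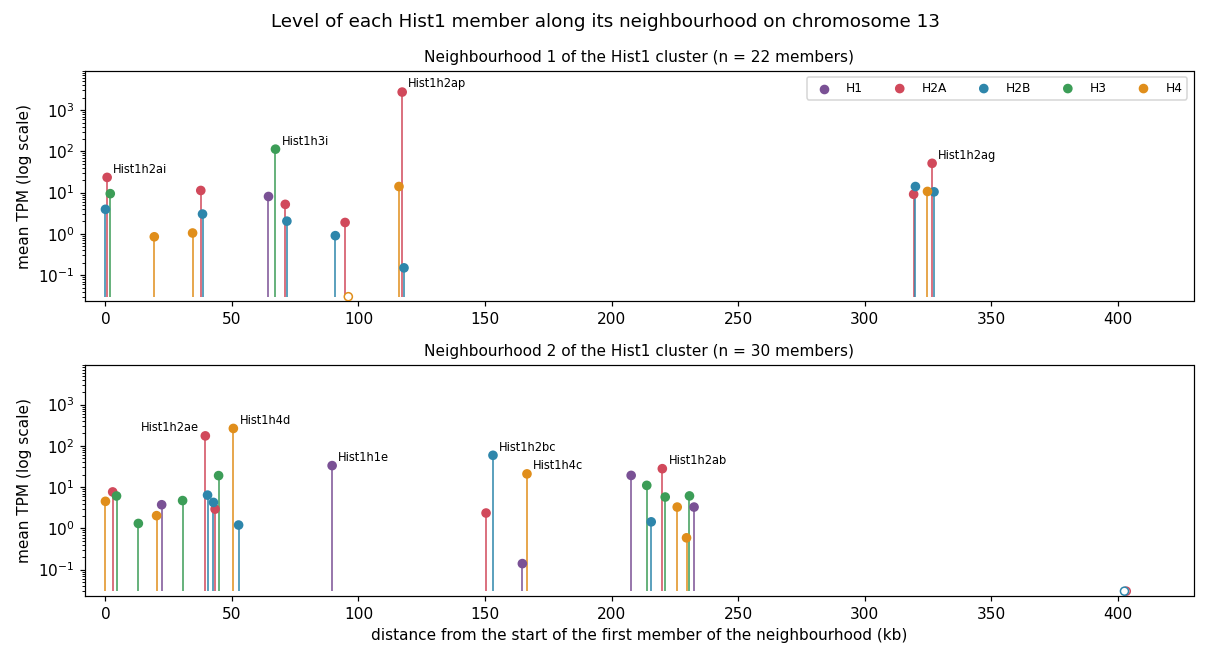
Mean TPM of 2 libraries (log axis) of each Hist1 member against its distance in kb from the first member of its neighbourhood, coloured by histone type; open circles are members at 0 TPM, and the genes above a mean of 20 TPM are named. Hist1h2ap, at 2740 TPM, has as its neighbours Hist1h4n at 14.1 TPM and Hist1h2br at 0.15 TPM under its own identifier, or 5.96 TPM with the transcript listed under another, which is not drawn.

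Many H2A and H2B genes sit head to head and share an intergenic promoter. There were 12 such pairs, with starts 176 to 306 bases apart. The H2A gene was higher in both libraries in 8 pairs, the H2B gene in 3 pairs, and in the testis pair of Hist1h2aa and Hist1h2ba both were at 0. These tallies use TPM under each gene's own identifier. On expected counts, which are not scaled by length, the order reversed in both libraries for Hist2h2ac beside Hist2h2be. Hist2h2ac, of 520 nt, had 62.55 and 61.6 counts and Hist2h2be, of 2620 nt, 233 and 312. The order also reversed for Hist1h2ao with 15.2 and 16.7 counts beside Hist1h2bq with 37.05 and 43.2. With the transcripts of Hist1h2bq and Hist1h2br that the tables list under other identifiers added, an alternative chosen after seeing the data, the H2A gene was higher in 7 pairs and the H2B gene in 4, since Hist1h2bq then had 1.78 and 2.38 TPM beside 1.74 and 2.04 TPM for Hist1h2ao. Hist1h2ap had 2652 and 2828 TPM while its partner Hist1h2br had 0.30 and 0 TPM under its own identifier, and 5.35 and 6.57 TPM with the added transcript. Hist1h2ae had 172 and 177 TPM and its partner Hist1h2bg 5.47 and 7.33 TPM. The reverse held for Hist1h2ac with 2.97 and 1.74 TPM beside Hist1h2bc with 64.4 and 53.8 TPM. The gene models used for length and the sharing of reads between copies differ within pairs, and their part in these differences was not tested.

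Because copies are near-identical, each level depends on how reads were divided between them. Across the members, 100-nt windows of the GENCODE M21 transcript were looked up in all other genes on either strand, a length chosen because the deposited effective lengths were 99 nt below the transcript lengths. The share of windows found in no other gene had a median of 60.7%, from 99.6% for the median H1 gene and 81.0% for H4 to 55.1% for H2B, 50.3% for H3 and 30.1% for H2A. Of the members, 5 had no unique window, 16 were under 25% unique and 12 were at 90% or more. Windows were also lost to overlapping genes that are not histone copies. Hist3h2a shared 610 windows with Trim17 and 0 with histone genes. All 389 windows of Hist2h3b were shared with Gm20628, and 300 of them with histone genes. Some such genes, as Gm44454 over Hist1h2ak, had no row in the deposited gene tables. All windows of the M21 model of Hist1h4d were unique. For 20 of 64 members the deposited tables used another length than M21, and TPM depends on the length used. Hist1h4d was among them, with 393 nt in the tables and 1138 nt in M21. So were Hist1h2ac with 476 and 2482 nt and Hist1h1d with 744 and 7425 nt. For these 20 the shares of unique windows describe the M21 model and not the model that was counted.

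Hist1h2ap shared most of its sequence. Only 30 of its 383 windows, all at its 5′ end, were unique, and 353 were shared with Hist1h2ao, which has the same coding sequence and its own 28 unique windows at its 3′ end. Hist1h2ao was given 15.2 and 16.7 counts, against 23349 and 23245 for Hist1h2ap. The 28 windows all reach past the stem-loop of Hist1h2ao, after which its model runs 31 nt. Its low count thus does not show that the gene is silent. The 2 genes together had 2653 and 2830 TPM, 88.0% and 87.5% of the H2A level, and reads from their shared windows cannot be told apart. The 9 H2A genes that encode the same protein as Hist1h2ap summed to 2929 and 3130 TPM, or 97.1% and 96.8% of the H2A level. The effective lengths of those 9 differ, so this sum too depends in part on how reads were divided among them.

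The deposited posterior SD of the count measures how uncertain that division was. Among the 57 members with posterior means of 10 or more counts in both libraries it had a median of 10.3% of the posterior mean and a maximum of 70.5%, for Hist1h2ao. It was over 20% in 15 members and under 5% in 20. For Hist1h2ap it was 0.265% and 0.292%, and for Hist1h4d 0.0409% and 0.0337%. The Hist1h2ap TPM nevertheless lay above its credibility interval of 2548 to 2619 TPM in replicate 1 and 2710 to 2787 TPM in replicate 2, whose level the sources used here do not give. Its posterior mean counts, 23320 and 23210, were close to its expected counts, while its posterior mean TPM was 2583 and 2749. Such an offset was not particular to it, since Hist1h4d had posterior means of 251 and 265 TPM against 257 and 272 TPM. Hist1h2ao went the other way, with 3.19 and 3.82 against 1.74 and 2.04 TPM.

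**Figure D4:**
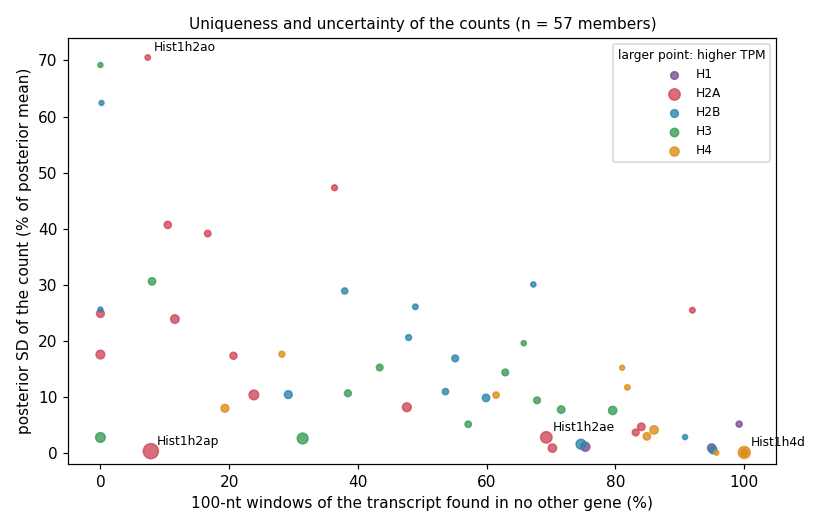
Posterior SD of the count as a percent of its posterior mean (mean of 2 libraries) against the percent of 100-nt windows found in no other gene, for the 57 members with 10 or more posterior counts in both libraries. Windows are those of the M21 transcript, which for some members differs in length from the model counted. Colours are histone types and larger points have higher TPM. The most uncertain counts lie at low uniqueness, Hist1h2ao at 70.5%, while Hist1h2ap has a small SD at 7.83% unique windows.

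Overlapping genes bear on some members, since the sources used here do not state the strand of the libraries. In M21, 23 of 64 members overlap another gene, most of them predicted miRNA genes. Hist1h1e overlaps Hist1h2be on the same strand, with 34.4 and 32.0 TPM against 1.23 and 1.18 TPM for Hist1h2be. The antisense genes Gm20632, Gm20633 and Gm20628 over Hist2h2aa2, Hist2h2aa1 and Hist2h3b had 0.82 and 0.91, 0.64 and 0.40, and 0.93 and 0.66 TPM. Reads of such pairs cannot be told apart where they overlap.

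The libraries were then compared, replicate 1 over replicate 2, with 1 library on each side, so that the test compares these libraries and covers counting error only. By a two-sided exact binomial test on expected counts scaled by TMM, with Benjamini-Hochberg adjustment over all genes with 10 or more counts, 1 of 58 members tested was higher in replicate 1 (1.72%), where 14.8% of all 19153 genes tested were, and 8 were lower, that is higher in replicate 2 (13.8%), where 12.7% of all genes were. The second share was near that of all genes. The median log2 ratio was -0.12 over the 58 members and 0.00 over all genes tested, and 37 members were below 0 and 21 above. By the exact test of edgeR, with 1 dispersion estimated from both libraries taken as a single group, 0 members were called in either direction, where 0.491% and 0.177% of 16920 genes were called higher in replicate 1 and higher in replicate 2, and 5 of 55 members tested had an unadjusted p under 0.05. That dispersion takes in the differences between the same 2 libraries that it is used to test. The lack of edgeR calls, here and in the lists below, thus cannot show that genes do not differ. The binomial calls below cover counting error alone. The share of all genes with an unadjusted p under 0.05 by edgeR is not given here. The unadjusted counts for the members, and for the marker and gene lists below, thus have no background beside them.

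Hist1h2bc was the member called higher in replicate 1, with 944 against 735 counts, a log2 ratio of 0.34 and an adjusted p of 2.18e-05 by the exact binomial test. Hist1h2ah had 37.6 against 84.7 counts, a log2 ratio of -1.17 and an adjusted p of 0.000180 by the same exact test. Its posterior SD was 47.5% and 33.8% of its posterior mean count, an error the test does not hold. Hist1h3d had 157 against 230 counts and a log2 ratio of -0.57, and Hist2h2be, all of whose windows were unique, 233 against 312 counts and -0.44. Hist1h2ag, Hist1h3b, Hist1h2ak and Hist1h3c had log2 ratios of -0.33, -0.87, -0.66 and -0.54, with adjusted p of 0.00502, 0.00527, 0.0265 and 0.0418 by the exact binomial test. Their posterior SDs, in the same order, were 10.7% and 9.95%, 18.2% and 12.2%, 5.21% and 4.03%, and 8.47% and 6.91% of the posterior mean counts. The remaining one, Hist1h2ad, named because it completes the count although its mean was under 5 TPM, had 13.1 against 33.5 counts and a log2 ratio of -1.33. Its posterior SD was 53.0% and 41.6% of its posterior mean count. The test does not hold these errors. Hist1h2ap, with the most counts, had a log2 ratio of -0.01 and an adjusted p of 0.468 by that exact test.

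**Figure D5:**
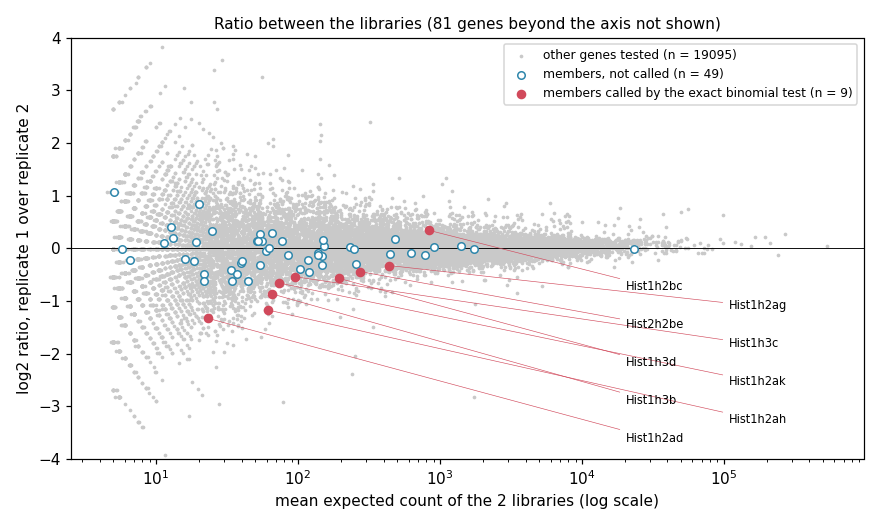
Log2 ratio of replicate 1 over replicate 2 against the mean expected count (log axis) for 19153 genes tested, with other genes in grey, members not called as open circles and the 9 called by the exact binomial test filled and named. The members lie within the cloud of other genes, 37 of 58 below 0, and Hist1h2bc is the called member above 0.

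Cell type markers also differed between the libraries, by the same exact binomial test that called 14.8% of all genes higher in replicate 1 and 12.7% higher in replicate 2. The 10 red blood cell markers summed to 26947 TPM in replicate 1 and 18277 TPM in replicate 2 and 9 of 10 were called higher in replicate 1. The 12 contractile muscle markers summed to 3739 and 2542 TPM, with 12 of 12 called higher in replicate 1. The 10 epidermis markers summed to 1619 and 1410 TPM, with 9 of 10 called higher in replicate 1. The 10 limb mesenchyme markers summed to 437 and 561 TPM, and 10 of 10 were called higher in replicate 2. The exact test of edgeR called 3 red blood cell and 3 contractile muscle markers, all higher in replicate 1, and 0 epidermis and 0 limb mesenchyme markers, of which 2 and 1 had an unadjusted p under 0.05. These markers differed between the same libraries as the members, and their part in the member differences was not tested.

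The genes that make and handle histone mRNA were read beside the members. The counts of calls in these lists are from the exact binomial test, which called 14.8% of all genes higher in replicate 1 and 12.7% higher in replicate 2. In the processing, transcription, decay, chaperone, DNA replication and replacement histone lists the exact test of edgeR called 0 genes, and 0 had an unadjusted p under 0.05. Of 18 genes of histone mRNA processing, 17 were at 1 TPM or above in both, and the highest were the Sm proteins Snrpg with 606 and 591 TPM and Snrpe with 521 and 487 TPM. Of the 18, 4 were called higher in replicate 1 and 4 higher in replicate 2. The stem-loop binding protein Slbp, named for its role and not by its rank, had 149 and 158 TPM. All 12 genes of histone gene transcription reached 1 TPM, led by Nfyc with 83.4 and 86.2 TPM and Cdk2 with 77.2 and 84.2 TPM, with 2 called higher in replicate 1 and 1 higher in replicate 2. Npat, the coactivator of these genes, also named for its role, had 16.3 and 17.9 TPM.

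Of 15 listed genes of histone mRNA decay, 13 had a row and reached 1 TPM, led by Lsm7 with 217 and 228 TPM and Lsm6 with 210 and 187 TPM, and 3 were called higher in replicate 1 and 2 higher in replicate 2. Zcchc6 and Zcchc11 had no row under these symbols. All 15 histone chaperones reached 1 TPM, led by Rbbp7 with 327 and 346 TPM and Rbbp4 with 251 and 262 TPM, with 3 called higher in replicate 1. All 24 DNA replication genes reached 1 TPM, led by Pcna, the sliding clamp, with 180 and 176 TPM and Tyms, which makes thymidylate, with 161 and 150 TPM. Of those 24, 7 were called higher in replicate 1 (14.8% of all genes were), and the median log2 ratio over the 24 was 0.04, beside -0.12 for the histone members and 0.00 for all genes tested.

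Replacement histones provide the other source of histone RNA. The 12 replication-dependent H3 genes summed to 214 and 257 TPM, against 3496 and 3607 TPM for the H3.3 genes H3f3a and H3f3b, a log2 ratio of -3.92 ± 0.16. The 6 H1 genes summed to 66.5 and 69.6 TPM, against 220 and 253 TPM for H1f0 and H1fx, a log2 ratio of -1.80 ± 0.10. In H2A the order was the reverse, with 3015 and 3234 TPM against 2063 and 2178 TPM for 6 replacement genes (H2afz, H2afv, H2afx, H2afj, H2afy and H2afy2), a log2 ratio of 0.56 ± 0.02. Without Hist1h2ap the H2A members were at 364 and 406 TPM, below the replacement genes. Most mRNAs of the members carry no poly(A) tail, and how cDNA was primed is not known. The part of priming in these ratios was not tested. All 10 replacement genes reached 1 TPM, and by the exact binomial test 3 were called higher in replicate 1 and 4 higher in replicate 2, where 14.8% and 12.7% of all genes were.

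How much of an RNA without a poly(A) tail such a library holds depends on how cDNA was primed, and the labels give of this only the Smart-seq protocol name. A list of 4 other RNAs without a tail, chosen after the data were seen, was therefore read beside the members. Rn7sk had 476 and 471 TPM, Rpph1 90.4 and 97.4 TPM, Rmrp 88.1 and 76.0 TPM and the telomerase RNA Terc 0.54 and 0.86 TPM. The part of priming in the histone levels was not tested.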

How the data were processed

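For each library a gene table and a transcript table were used. Per the notes deposited with each sample, the build is mm10 and the annotation GENCODE M4. The sources used here do not name the aligner, the quantification program, the strand or the priming; the labels name mirVana extraction and link a protocol whose file name refers to Smart-seq. The deposited expected counts are estimates of reads per feature made by the authors. TPM, which the authors deposited with its posterior mean, is a level per effective length scaled to a fixed total. FPKM, also deposited, was left unused. Each transcript's percent of its gene's TPM is as deposited. Posterior SDs, credibility bounds and lengths were likewise deposited.

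Symbols and positions came from GENCODE M21 on GRCm38, which had 42462 of 43346 identifiers. Python 3.11.15, pandas 2.3.3, R 4.3.3, DESeq2 1.42.0 and edgeR 4.0.16 were used. Counts were rounded for the tests. Library sizes held Ensembl genes, with spike-ins serving as an alternative scaling. The library test was a two-sided exact binomial test at TMM sizes on genes whose summed count was at least 10, called at an adjusted p of 0.05, and was tested on simulated data. Edit distance over the longer sequence gave coding identities.

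Members and gene lists were chosen with earlier results of these data known. Named genes were the 3 highest members of each type, every H1 gene, every member outside Hist1, members called at a mean of at least 5 TPM, members listed at 0, testis genes and the 2 highest genes of other lists, whose called genes are given as counts. Further members named to fill a pair, an order or a threshold were chosen after their values were seen. Alternatives covered scaling, filters, estimates and each library alone.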

Additional observations from a re-analysis of the deposited data

Results flagged for a closer look

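Signal was seen in rows that the sums above do not use, over the 3 counts that a count of 0 allows. A transcript of Hist2h2bb, which has no row of its own, was listed under the identifier of Gm42743 with 79.8 counts in replicate 1 and 71.8 in replicate 2 (151.6 in sum), or 12.3 and 11.9 TPM. By its mean of 12.1 TPM it would rank 4 among the H2B genes, although in replicate 1 it was above Hist3h2ba with 11.2 TPM. A transcript of Hist1h2br was listed under an identifier with no M21 entry with 32.8 and 39.8 counts (72.5 in sum), or 5.05 and 6.57 TPM, against 0.30 and 0 TPM under its own. A transcript of Hist1h2bq stood likewise under such an identifier with 6.37 and 8.65 counts (15.0 in sum). A transcript of Hist2h3c1 was listed under Gm20634 with 25.04 and 69.3 counts (94.4 in sum), against 0 and 3.65 counts under its own.

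Of the 3 histone-named pseudogenes, Hist1h2aj had 46.8 counts in replicate 1 and 0 in replicate 2 (46.8 in sum), with posterior means of 55.4 and 35.4 counts and posterior SDs of 29.0 and 27.8. Hist1h2al had 7.49 and 1.37 counts (8.86 in sum). Hist3h2bb-ps had 2.25 and 7.59 counts (9.84 in sum). Whether these reads belong to the pseudogenes or to their coding copies was not tested.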

How the results depend on the processing

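Posterior mean TPM kept each sum, ratio and share within 1 SD of its value, as did TMM-normalized counts per kb for the sums. On expected counts the log2 ratios moved to 3.98 for H2A over H2B, 3.43 for H2A over H4, -0.34 for H3 over H4, -0.55 for H2B over H4 and -0.93 for H1 over H4, and the Hist1 share to 92.3%. Without the leading member of each type they were 2.56, 2.54, 0.87 (reversed), -0.017 and -0.93. In an alternative chosen after seeing the data, adding the transcripts listed under other identifiers, the H2B sum moved to 143.9 TPM, H2A over H2B to 4.44 and H2B over H4 to -1.20. At 5 TPM the members detected in both libraries fell to 32, against 58 at 0.5 TPM.

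Each library alone gave H1 sums of 66.5 to 69.6, H2A 3015 to 3234, H2B 124 to 126, H3 214 to 257 and H4 318 to 344 TPM, log2 ratios of 4.61 to 4.68, 3.23 to 3.25, -0.57 to -0.42, -1.45 to -1.36 and -2.31 to -2.26 in the order above, a Hist1 share of 96.0% to 96.2%, and 52 to 53 members detected.

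The members called between libraries were 9, and 0 by edgeR's exact test, with 8 to 13 under other scalings and filters. Scaling by total counts and by spike-in counts moved the split of all calls from 2835 higher in replicate 1 and 2439 higher in replicate 2 to 2233 and 3334, and to 1871 and 4167. Members then split 1 and 11, and 1 and 12. No paired analysis was possible because there was 1 group. With 2 libraries, depth limits members under about 10 counts. The p-values compare only these 2 libraries.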
